A study of Mus musculus with 30 samples.

Results

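The macrophage genes and the CSF1 axis of a mouse mammary tumour were followed as 9 genes out of the 20855 genes named in the deposited expression table. The 9 are the ligand genes Csf1 and Il34, their receptor gene Csf1r, and the macrophage genes Adgre1, Mrc1, Cd163, Cd14, Arg1 and Trem2. Each gene was represented by its transcript of highest mean level, and all 9 were above a mean of 1 RPKM (reads per kilobase of transcript, scaled to the mapped reads of the library), so none was lost to the filter on low genes. The tumours came from 30 animals of the ((MOLF x PyMT) x FVB) backcross, with 1 library per animal, made from poly-A selected RNA of the tumour tissue. PyMT is the polyoma virus middle T antigen, an oncogene carried as a transgene that gives mammary tumours. The mice carry a mixture of the MOLF and FVB genomes, and the labels give neither genotype, treatment, age nor the promoter of the transgene. The 30 tumours therefore formed a single group, and what could be compared was how the 9 genes varied from tumour to tumour.

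CSF1 is the growth factor on which most tissue macrophages depend for survival, and it acts through the receptor tyrosine kinase CSF1R on their surface. IL-34 is the other ligand of the same receptor and is made mainly by epithelial cells and neurons. In PyMT mammary tumours, macrophages recruited through this axis are a well known part of the stroma. PU.1, the product of Spi1, is a transcription factor of the myeloid lineage and binds purine-rich sites in the promoters of many macrophage genes, Csf1r among them.

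The promoters of 3 macrophage genes are shown because their RNA rose with Csf1r in the tests given further on and because PU.1 sites can be looked for in them. Each is the 250 bases before the start that RefSeq's promoter table, assembly GRCm38.p6, gives for the gene, on the strand of the gene, and the table matched 4 of the 9 genes. The last bases of the Cd163 stretch lie inside the gene as RefSeq's gene table places it. Capitals mark TTCCTC, the reverse complement of GAGGAA, the core of a PU.1 site.
Mrc1, chr2:14229164-14229413, plus strand: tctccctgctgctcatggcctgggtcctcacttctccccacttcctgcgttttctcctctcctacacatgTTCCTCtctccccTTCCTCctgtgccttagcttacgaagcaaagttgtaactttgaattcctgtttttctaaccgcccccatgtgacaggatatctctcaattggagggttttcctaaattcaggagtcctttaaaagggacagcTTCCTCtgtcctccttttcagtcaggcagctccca
Cd163, chr6:124304401-124304650, plus strand: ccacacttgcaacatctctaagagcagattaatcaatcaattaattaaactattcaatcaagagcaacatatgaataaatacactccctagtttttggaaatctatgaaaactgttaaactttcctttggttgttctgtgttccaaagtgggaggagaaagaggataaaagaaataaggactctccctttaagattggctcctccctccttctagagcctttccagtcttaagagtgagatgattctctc
Trem2, chr17:48346151-48346400, plus strand: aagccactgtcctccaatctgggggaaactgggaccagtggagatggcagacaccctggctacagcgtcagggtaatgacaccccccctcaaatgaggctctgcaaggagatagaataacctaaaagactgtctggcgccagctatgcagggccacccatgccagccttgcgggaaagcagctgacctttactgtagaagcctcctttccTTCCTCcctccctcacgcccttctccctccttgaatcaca
GAGGAA was searched on both strands. The Mrc1 promoter held it 3 times, all on the strand opposite to the gene, at 180 to 175, 167 to 162 and 35 to 30 bases before the start. The Trem2 promoter held it once, at 40 to 35 bases before the start. The letters were not found in these 250 bases of Cd163, nor in those of Csf1, the fourth promoter matched. Of 27025 mouse promoters of the same length, 6252 held the core, which is 23.13%, so its presence in 2 of 4 promoters is a description only. The longer form GAGGAAGT, on either strand, was in 2.44% of promoters and in none of the 4.

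The libraries differed in depth, with 16 shallow libraries between 42.5 and 61.9 M reads and 14 deep ones between 117 and 197 M reads, as recovered from the steps in the values. The deep libraries also had shorter inserts (233 ± 14.7 bases, SD, n = 14) than the shallow ones (261 ± 12.3, SD, n = 16), and the ranges of the classes overlapped. None of the 9 genes differed between deep and shallow libraries with limma (adjusted p between 0.914 and 0.994), where 169 of 13615 genes did (1.24%). At an unadjusted p under 0.05 the count among the 9 was also 0. No member passed the limma test against the insert size given in the labels either, where 5 of 13615 genes did (0.0367%), 2 rising (0.0147%) and 3 falling (0.022%); with depth class as a covariate 468 genes did. Arg1 was the only member at an unadjusted p under 0.05, with a slope of -0.43 ± 0.19 per SD of insert size (adjusted p = 0.316). Epcam and Krt8, among 11 luminal epithelial genes tested, were high in all 30 tumours, with Epcam between 313 and 711 RPKM and Krt8 between 284 and 794 RPKM. Libraries correlated with each other at r between 0.866 and 0.981 over the tested genes.

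Both ligand genes were expressed in every tumour, and Csf1 was the higher of the pair in 30 of 30. Csf1 ranged from 5.66 RPKM in animal 4030 over a median of 10.0045 to 16.5 RPKM in animal 4036 (mean 10.3 ± 2.55, SD, n = 30), a 2.91-fold range. Il34 ranged from 2.33 RPKM in animal 4438 over a median of 4.98 to 8.12 RPKM in animal 4036 (5.15 ± 1.36, SD, n = 30), a 3.48-fold range. These 2 genes were the least variable of the 9. The SD of log2(RPKM + 1) was 0.33 for Csf1 and 0.32 for Il34, larger than that of 65.6 and 63.9% of the tested genes, whose median SD was 0.27. The ratio of Csf1 to Il34 level had a median of 2.01 and ran from 1.15 in animal 4030 to 6.23 in animal 4438. Animal 4438 combined the third highest Csf1 level, 14.5 RPKM, with the lowest Il34 level.

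The receptor gene Csf1r stood above both ligands in 30 of 30 tumours. It ranged from 8.74 RPKM in animal 4150 over a median of 24.03 to 64.3 RPKM in animal 4036 (25.7 ± 10.4, SD, n = 30). The next highest were 41.8 RPKM in animal 3273 and 40.2 RPKM in animal 4142, so animal 4036 stood well above the rest. The ratio of Csf1r to Csf1 level was 2.59 at the median, 1.03 in animal 4150 and 4.26 in animal 4547. In bulk tumour RNA, the number of macrophages, the RNA of a gene per macrophage and its RNA from other cells cannot be told apart. This holds for every level and relation given here.

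Adgre1, which encodes the F4/80 antigen used to identify mouse macrophages, ranged from 0.977 RPKM in animal 4150 over a median of 7.78 to 20.5 RPKM in animal 4036, a 20.99-fold range. The lowest value rested on about 135 reads. The next lowest was 3.91 RPKM in animal 3654, so the tumour of animal 4150 stood apart at the low end. Csf1r was also lowest there, but by less, and its ratio to Adgre1 was 8.94 in that tumour against a median of 3.12.

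Mrc1 encodes the mannose receptor CD206 and Cd163 a scavenger receptor for haemoglobin bound to haptoglobin; both are commonly used as markers of alternatively activated and resident macrophages. Mrc1 ranged from 0.96 RPKM in animal 3654 and 1.21 RPKM in animal 4150 over a median of 5.98 to 32.3 RPKM in animal 4036, a 33.7-fold range. Its SD on the log2 scale, 0.87, was larger than that of 97.3% of the tested genes. Cd163 ranged from 0.721 RPKM in animal 4438, about 166 reads, over a median of 3.37 to 13.4 RPKM in animal 4036, with 10.1 RPKM in animal 3273 and no other tumour above 5.78 RPKM. Mrc1 was above Cd163 in 27 of 30 tumours, and the ratio ran from 0.54 in animal 4150 to 4.25 in animal 4142.

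Cd14, Arg1 and Trem2 did not share these extremes in full. Cd14, the co-receptor that hands bacterial lipopolysaccharide to Toll-like receptor 4, ranged from 32.6 RPKM in animal 3654 over a median of 73.0 to 167 RPKM in animal 4042. Arg1, the arginase that turns arginine into ornithine and urea, ranged from 11.2 RPKM in animal 4357 over a median of 66.7 to 321 RPKM in animal 4262, followed by 282 RPKM in animal 3871 and 228 RPKM in animal 4511. Its SD on the log2 scale of 1.12 was the largest of the 9 and exceeded that of 98.7% of the tested genes. Trem2, a lipid-sensing receptor that signals through the adaptor TYROBP, ranged from 7.21 RPKM in animal 4438 over a median of 12.5 to 24.6 RPKM in animal 4036, a 3.41-fold range.

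**Figure D1:**
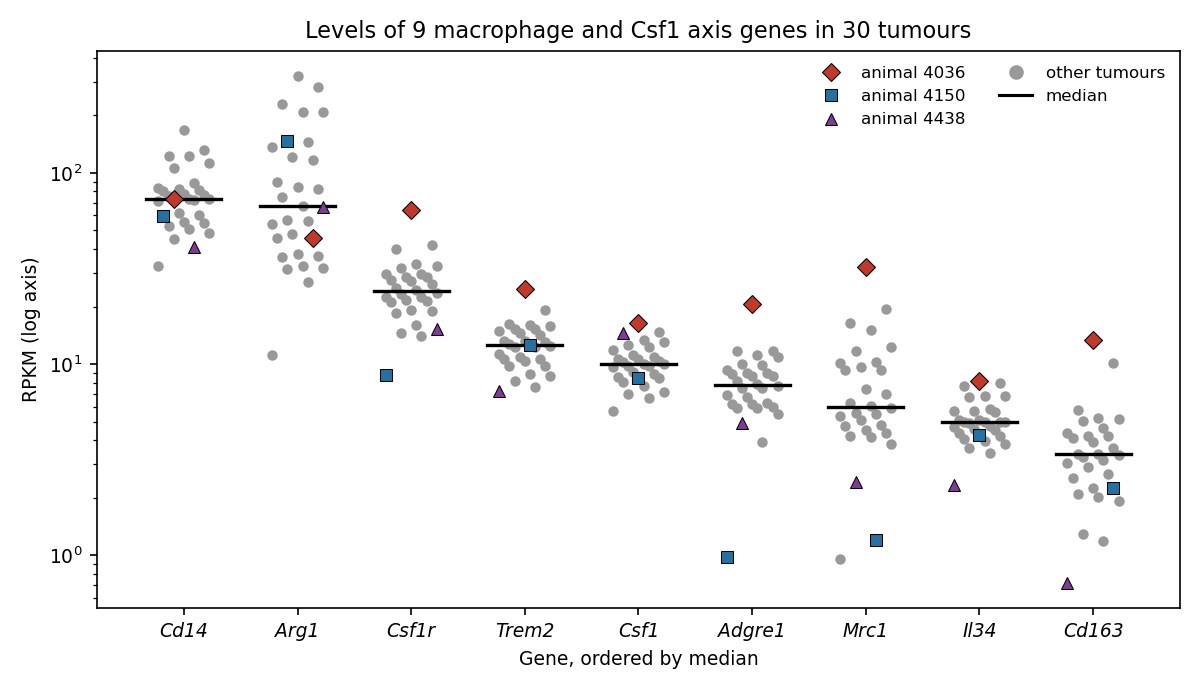
Level of each of the 9 genes in RPKM (vertical log axis), 1 point per tumour, 30 tumours, ordered by median (black line). Animal 4036 (red diamond) is highest in 7 of the 9 genes but not in Cd14 or Arg1, and animal 4150 (blue square) is the lowest in Csf1r and Adgre1 while its Arg1 level, 146 RPKM, is above the median.

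By median level the order was Cd14, Arg1, Csf1r, Trem2, Csf1, Adgre1, Mrc1, Il34 and Cd163. Cd14 and Arg1 could not be ordered, since Cd14 was the higher in 15 of 30 tumours. Arg1 was above Csf1r in 26 of 30 tumours and Csf1r above Trem2 in 29 of 30. Adgre1 was above Mrc1 in only 18 of 30, so these neighbours overlapped widely as well. Trem2 was above Csf1 in 22 of 30, Csf1 above Adgre1 in 21 of 30, Mrc1 above Il34 in 22 of 30 and Il34 above Cd163 in 24 of 30.

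The same few animals gave most of the extremes. Animal 4036 was highest in Csf1, Csf1r, Il34, Adgre1, Mrc1, Cd163 and Trem2. Its Cd14 level of 72.8 RPKM lay at the median and its Arg1 level of 45.9 RPKM below it. The summed level of 16 stroma matrix genes (collagens, Fn1, Sparc and others) in that tumour was 7140 RPKM against a median of 1455, the highest of the 30, as was its summed adipocyte level (3360 RPKM against a median of 257). Its summed luminal epithelial level, 1596 RPKM, and summed proliferation level, 293 RPKM, were the lowest of the 30. Animal 4438 was lowest in Il34, Cd163 and Trem2 and among the lowest 3 in 6 of the 9 genes, and it had the lowest stroma matrix sum, 402 RPKM. Animal 4150 had the lowest summed level of 24 other macrophage genes, 566 RPKM against a median of 924, and the highest sum of 6 neutrophil genes, 231 RPKM against a median of 55.8, of which S100a8 alone gave 206 RPKM; none of the other 5 was highest in that tumour. The part of tissue composition in these extremes was not tested.

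Which of the 9 genes varied together was asked for all 36 pairs, by Pearson's r and Spearman's rho on log2(RPKM + 1) over the 30 tumours, with permutation tests of 100000 resamples, two-sided, and adjustment over the 36 pairs. By r, 18 pairs passed an adjusted p of 0.05, of which 17 were positive, and by rho 17 passed. How often pairs of other genes would pass was not computed. Over all tested genes, the share with r of at least 0.5 ran from 0.573% with Arg1 to 10.6% with Csf1r. The receptor and the F4/80 gene were the most alike, with r = 0.89 and rho = 0.85 for Csf1r and Adgre1 (p = 1e-05, the smallest these permutations can give, adjusted p = 9e-05). Csf1r and Mrc1 had r = 0.86 (rho = 0.79), Adgre1 and Mrc1 r = 0.85 (rho = 0.83), and Mrc1 and Cd163 r = 0.79 (rho = 0.69), each with the same smallest p by r. Cd163 was less close to Csf1r (r = 0.69, rho = 0.57, p = 5e-05, adjusted p = 0.00036), and in the shallow libraries that pair did not pass (r = 0.60, adjusted p = 0.0793). The Csf1r and Adgre1 pair stayed at r = 0.93 within the deep libraries, 0.87 within the shallow ones and 0.81 after animals 4036 and 4150, whose Csf1r levels lay farthest out, were removed. For Csf1r and Mrc1 these values were 0.88, 0.85 and 0.78.

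**Figure D2:**
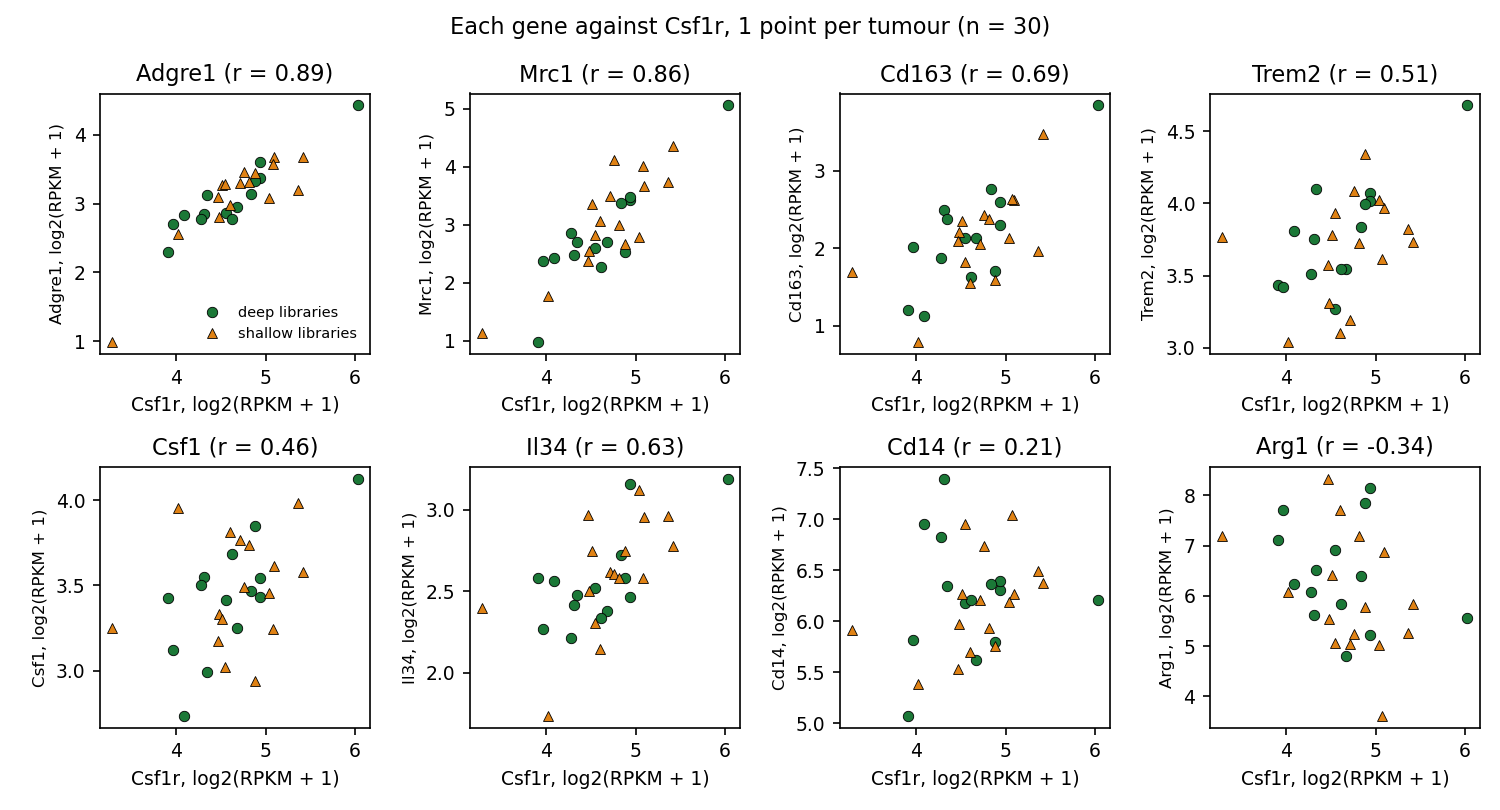
Each of the other 8 genes (vertical axis) against Csf1r (horizontal axis), both as log2(RPKM + 1), with 1 point per tumour, deep libraries as green circles and shallow ones as orange triangles. The points of Adgre1 and Mrc1 lie along a line (r = 0.89 and 0.86), those of Csf1 and Trem2 are more scattered (r = 0.46 and 0.51), and those of Cd14 and Arg1 show no relation that passed the test (r = 0.21 and -0.34).

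Of the ligands, Il34 had the higher r with the receptor gene, though the difference between these correlations was not tested. Il34 and Csf1r had r = 0.63 (rho = 0.65, p = 0.00028, adjusted p = 0.00144), with r = 0.70 in deep libraries, 0.58 in shallow ones, where it did not pass (adjusted p = 0.0830), and 0.60 without animals 4036 and 4150. Csf1 and Csf1r had r = 0.46 (rho = 0.42, p = 0.0101, adjusted p = 0.0227), with r = 0.72 in deep libraries and 0.19 in shallow ones. The relation of Csf1 to Csf1r rested on single tumours: r was 0.33 without animal 4036 (adjusted p = 0.135), 0.41 without animal 4142 (adjusted p = 0.0521) and 0.27 without animals 4030 and 4036 (adjusted p = 0.256). The 2 ligands showed no relation that passed the test with each other (r = 0.08, rho = 0.13, p = 0.670, adjusted p = 0.710), and the sign differed between deep (r = 0.44) and shallow libraries (r = -0.21). Over the 30 tumours Csf1 had no pair past the threshold other than that with Csf1r, while without animal 4438 Csf1 and Mrc1 passed (r = 0.44, adjusted p = 0.0399).

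Il34 had with Trem2 the same rounded r as with the receptor (r = 0.63, rho = 0.54, p = 0.00021, adjusted p = 0.00126), with r = 0.72 in deep and 0.60 in shallow libraries. This call was lost in the shallow libraries (adjusted p = 0.0658) and without animals 4036 and 4438 (r = 0.46, adjusted p = 0.0523). Trem2 also passed with Csf1r (r = 0.51), Adgre1 (r = 0.50), Cd163 (r = 0.50) and Mrc1 (r = 0.45), but each of these 4 calls was lost without animal 4036, where r was 0.35, 0.36, 0.33 and 0.29 (adjusted p = 0.126, 0.117, 0.135 and 0.188). Without animal 4438 the pairs of Trem2 with Cd163 (r = 0.41, adjusted p = 0.0577) and with Mrc1 (r = 0.40, adjusted p = 0.0605) were lost as well. The pairs of Il34 with Adgre1 and with Mrc1, both at r = 0.50, were lost without animal 4036 too, where both had r = 0.41 (adjusted p = 0.0847 and 0.0772). In all, 11 of the 36 pairs passed without that animal.

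Cd14 and Arg1 ran against each other. Their r was -0.49 (rho = -0.43, p = 0.00627, adjusted p = 0.0151), with r = -0.30 in deep and -0.71 in shallow libraries, and without animal 4357, which had the lowest Arg1 level and the second highest Cd14 level, r was -0.41 (adjusted p = 0.0552). Neither varied with Csf1r past the threshold, with r = 0.21 for Cd14 (adjusted p = 0.333) and r = -0.34 for Arg1 (p = 0.0677, adjusted p = 0.115). By r, the pair of Cd14 with another macrophage gene that passed was that with Mrc1 (r = 0.45, adjusted p = 0.0259), and it was lost without animal 3654 (r = 0.33, adjusted p = 0.138), animal 4357 (r = 0.41, adjusted p = 0.0559) or animal 4438 (r = 0.41, adjusted p = 0.0589). Cd14 with Cd163 passed by rho (0.45, adjusted p = 0.0330) but not by r (0.35, adjusted p = 0.101), and it passed by r in quantile-normalised values (0.45, adjusted p = 0.0307) and without animal 4030 (0.47, adjusted p = 0.0208). Arg1 had a negative r with Mrc1 (-0.38, adjusted p = 0.0737), Adgre1 (-0.28) and Cd163 (-0.23), none of which passed; without animal 3871 the pair with Mrc1 did (r = -0.44, adjusted p = 0.0324).

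**Figure D3:**
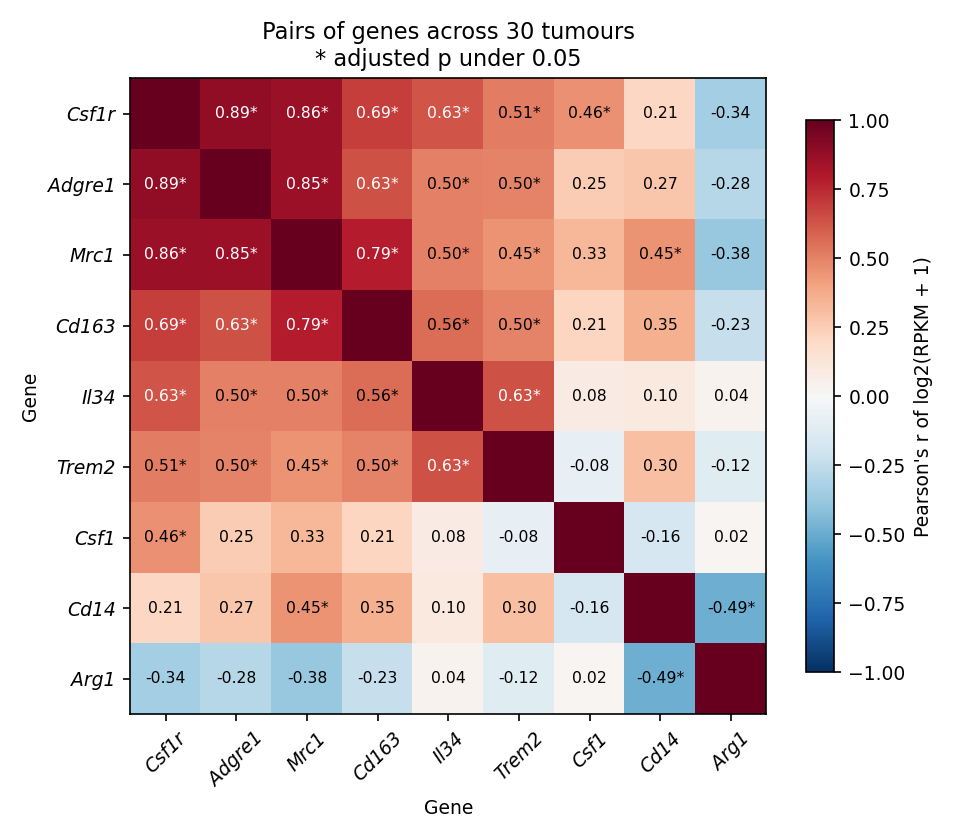
Pearson's r of log2(RPKM + 1) over 30 tumours for each pair of the 9 genes, from blue (negative) to red (positive), with an asterisk where the adjusted p over 36 pairs was under 0.05. Csf1r, Adgre1, Mrc1 and Cd163 form a block with r between 0.63 and 0.89, Csf1 has an asterisk with Csf1r alone, and Cd14 and Arg1 are negatively related (r = -0.49).

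The level of stroma matrix genes moved with several of these genes. With a score of the 16 stroma matrix genes, r was 0.85 for Mrc1, 0.80 for Cd163, 0.79 for Csf1r, 0.75 for Adgre1, 0.58 for Il34, 0.43 for Trem2 and for Cd14, 0.28 for Csf1 and -0.28 for Arg1. On the residuals from that score, 4 of the 36 pairs passed. These were Csf1r with Adgre1 (r = 0.73, adjusted p = 0.00036), Adgre1 with Mrc1 (r = 0.62, adjusted p = 0.00288), Csf1r with Mrc1 (r = 0.60, adjusted p = 0.00576) and Il34 with Trem2 (r = 0.52, adjusted p = 0.0268). The residual r of Csf1r was 0.16 with Cd163 (adjusted p = 0.628) and 0.34 with Il34 (adjusted p = 0.324). Whether stroma content accounts for the other pairs was not tested.

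To set the members against the rest of the transcriptome, each tested gene was regressed on the standardised log2 level of Csf1r with limma, with Benjamini-Hochberg adjustment over all 13614 genes. A slope is the change in log2(RPKM + 1) per SD of Csf1r. Of the other 8 members 6 rose with Csf1r, against 25.7% of all genes that passed in either direction, 13.7% rising and 12% falling. Mrc1 rose by 0.75 ± 0.08 (SE), Adgre1 by 0.51 ± 0.05 and Cd163 by 0.43 ± 0.08 (adjusted p = 9.28e-08, 1.94e-08 and 0.000285). Il34 rose by 0.20 ± 0.05 (adjusted p = 0.00213), Trem2 by 0.19 ± 0.06 (adjusted p = 0.0171) and Csf1 by 0.15 ± 0.05 (adjusted p = 0.0384). Cd14 had a slope of 0.11 ± 0.09 (adjusted p = 0.407) and Arg1 of -0.38 ± 0.19 (adjusted p = 0.140). The median slope was 0.19 over the 8 members and -0.0025 over all genes. Without animal 4036 the calls of Csf1 (adjusted p = 0.182) and Trem2 (adjusted p = 0.149) were lost; that of Csf1 was also lost without animal 4030, 4142, 4150, 4459 or 4461, with adjusted p between 0.0506 and 0.0742. Within quantile-normalised values 5 of the 8 rose, Csf1 being the call lost, beside 1540 of 13614 genes that rose. The share of rising genes among all called fell to 41.1% from 53.1%. In deep libraries 5 and in shallow libraries 3 of the 8 rose, with Adgre1, Mrc1 and Cd163 called in both. Over all 13614 genes, 509 rose in the deep and 1155 in the shallow libraries. With the stroma matrix score as a covariate, 0.801% of all genes passed, and Adgre1 (0.44, adjusted p = 0.00313) and Mrc1 (0.45, adjusted p = 0.0473) were the 2 members that did.

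Other macrophage genes rose with Csf1r in 22 of 24 cases, with a median slope of 0.26, beside 13.7% of all genes that rose. Among these the lysozyme gene Lyz2 rose by 0.40 ± 0.08, the protease gene Ctss by 0.18 ± 0.04, the complement gene C1qa by 0.24 ± 0.06 and Laptm5, a lysosomal membrane protein gene of blood cells, by 0.50 ± 0.04. The 2 that did not pass, named after their values were seen, were Aif1 (0.0079, adjusted p = 0.952) and Mertk (0.15, adjusted p = 0.0657). Without animals 4036 and 4150, 18 of the 24 rose, where 9.04% of all genes were called in either direction and 797 of 13614 rose. In the deep libraries 10 of 24 rose, where 4.85% of all genes passed in either direction and 509 rose. In the shallow libraries 18 of 24 rose, where 15.3% passed in either direction and 1155 rose.

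Of 18 genes of CSF1 receptor signalling and myeloid growth factors, 8 rose and 1 fell with Csf1r. Over all genes 13.7% rose and 12% fell. Spi1 rose by 0.28 ± 0.05 (adjusted p = 8.26e-05), Irf8 by 0.31 ± 0.06 and Cebpa by 0.33 ± 0.06, all of them transcription factor genes of the myeloid lineage. The phosphatase gene Inpp5d, whose product limits signalling downstream of the receptor, rose by 0.30 ± 0.03, and the cytokine receptor chain gene Csf2rb by 0.36 ± 0.07. Csf3, the gene of granulocyte colony-stimulating factor, fell by 0.33 on the log2 scale (SE 0.11, adjusted p = 0.0226). In the shallow libraries, where 15.3% of all genes passed and 1155 of 13614 rose, 4 of the 18 genes rose. With the stroma matrix score as a covariate, where 96 of 13614 genes rose, 1 of the 18 did. Csf2, the gene of the granulocyte-macrophage factor, was at or below 0.175 RPKM in every tumour and was not tested. Of 5 tested partners of Trem2, 4 rose with Csf1r: Syk by 0.35 ± 0.05, Apoe by 0.28 ± 0.07, Tyrobp by 0.22 ± 0.05 and Hcst by 0.20 ± 0.07. Of 9 partners of Cd14 in the Toll-like receptor pathway 1 rose, Tlr1 (0.18 ± 0.05, adjusted p = 0.0121). That share was below the 13.7% of all genes that rose. Tlr4 itself had a slope of 0.13 (adjusted p = 0.102).

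Of 8 genes of arginine metabolism and alternative activation, 4 rose with Csf1r, beside 13.7% of all genes that rose. Retnla, a secreted protein gene induced by interleukin 4, rose by 1.28 ± 0.19 and the lectin gene Clec10a by 0.82 ± 0.10, beside Il4ra (0.22 ± 0.05) and Nos2 (0.17 ± 0.05), the gene of the inducible nitric oxide synthase. Arg2, the other arginase gene, had a slope of -0.24 (adjusted p = 0.113). Of 10 tested genes in the list for resident macrophages 8 rose, among them Mgl2 (0.65 ± 0.08), Cbr2 (0.37 ± 0.10) and Gas6 (0.23 ± 0.09). F13a1 had a slope of 0.54 ± 0.21 (adjusted p = 0.0617). Of these 10 genes 5 rose in the deep libraries, in the shallow libraries and without animals 4036 and 4150. The genes that rose over all 13614 differed between these settings, with 509, 1155 and 797 in the same order.

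Genes of other cell types moved with Csf1r too, beside 13.7% of all genes that rose and 12% that fell. All 7 MHC class II genes rose (Cd74 by 0.64 ± 0.10, H2-Aa by 0.65 ± 0.09), as did all 3 tested dendritic cell genes and 4 of 5 mast cell genes. All 16 stroma matrix genes rose (Col3a1 by 0.75 ± 0.10, Dcn by 0.71 ± 0.09), all 10 endothelial genes (Cdh5 by 0.42 ± 0.05, Pecam1 by 0.39 ± 0.05) and all 9 adipocyte genes (Car3 by 1.46 ± 0.29, Lipe by 0.56 ± 0.10). Without animals 4036 and 4150 the stroma matrix count was 9 of 16, the endothelial count 9 of 10 and the adipocyte count 9 of 9. In that setting 797 of all 13614 genes rose. In the deep libraries alone, 4 of 7 MHC class II, 5 of 10 endothelial and 4 of 9 adipocyte genes rose. There 4.85% of all genes passed in either direction and 509 of 13614 rose. No luminal epithelial gene of 11 passed, nor any T cell gene of 6 or B cell gene of 4. At an unadjusted p under 0.05 with limma there were 2 luminal genes, Krt18 and Epcam, both with negative slopes, beside 2484 of 13614 genes with negative slopes at that threshold, so the luminal share was no larger than the share of all genes. No T cell or B cell gene had an unadjusted p under 0.05. S100a8, a neutrophil gene, fell by 0.49 on the log2 scale (SE 0.14, adjusted p = 0.0120), with no other of 6 neutrophil genes passing, and 3 of 12 proliferation genes fell, led by Cdk1 (-0.21 ± 0.05, adjusted p = 0.00292). With the stroma matrix score as a covariate, 5 of 24 other macrophage genes, 2 of 3 dendritic cell genes, 1 of 10 endothelial genes and no MHC class II gene rose. Over all 13614 genes 96 rose in that setting.

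**Figure D4:**
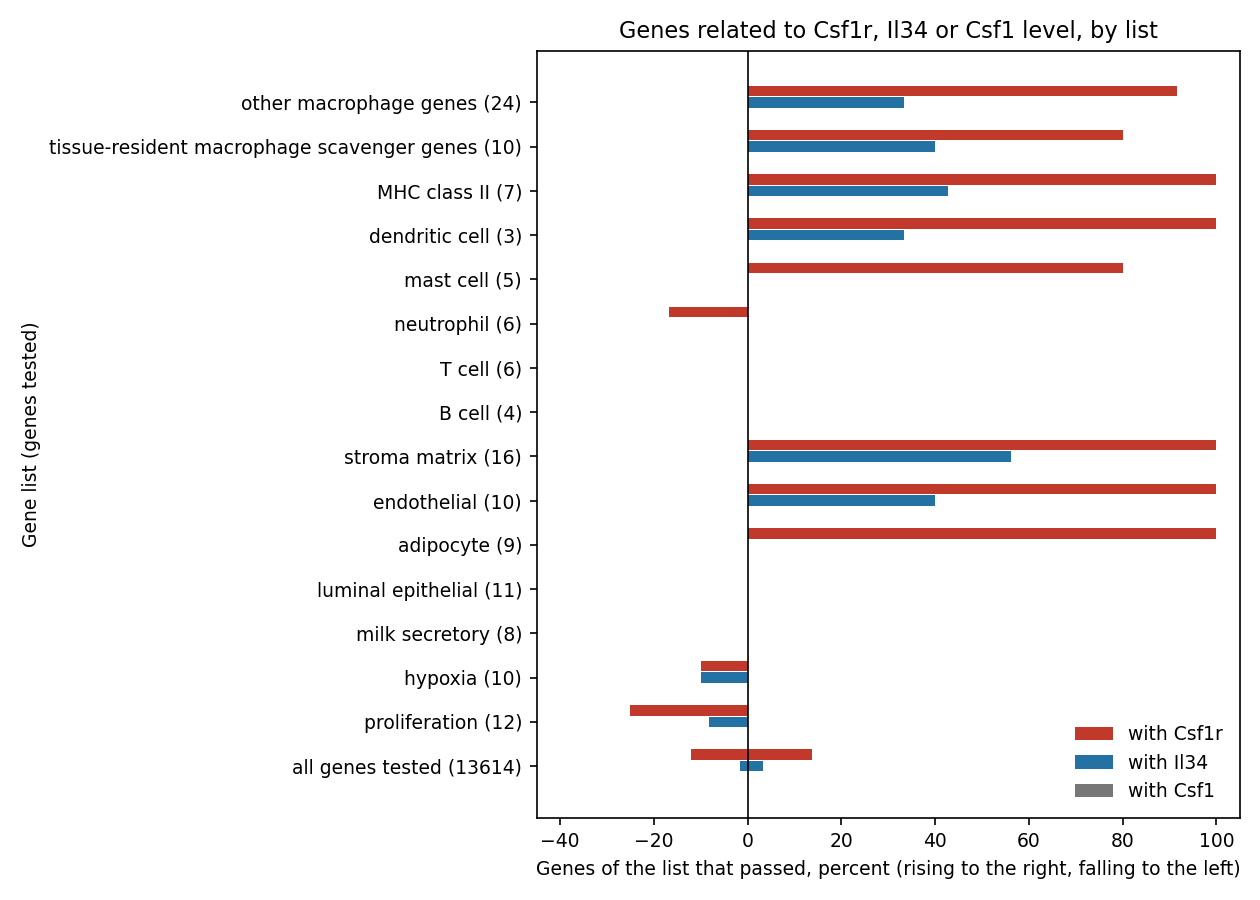
Share of each gene list, in percent of its tested genes (number in brackets), that rose (bars to the right) or fell (bars to the left) with the level of Csf1r, Il34 or Csf1 by limma at an adjusted p under 0.05, beside all genes tested. With Csf1r, 22 of 24 other macrophage genes and 16 of 16 stroma matrix genes rose, with Il34 8 of 24 and 9 of 16, and no listed gene passed with Csf1, so that its bars have no length.

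With Il34 as the predictor, 3 of the other 8 members rose, against 5.05% of all genes that passed in either direction, 3.39% rising and 1.66% falling. Csf1r rose by 0.33 ± 0.07 per SD of Il34 (adjusted p = 0.0105), Trem2 by 0.23 ± 0.05 (adjusted p = 0.0111) and Cd163 by 0.35 ± 0.09 (adjusted p = 0.0282). Mrc1 (0.44 ± 0.14, adjusted p = 0.0514) and Adgre1 (0.29 ± 0.09, adjusted p = 0.0550) lay just outside. Both passed with Il34 in the test of pairs, where the adjustment was over 36 pairs and not over all genes. Csf1 had a slope of 0.026 ± 0.060 (adjusted p = 0.842). The 3 calls were all lost without animal 4036, with adjusted p of 0.0573 for Csf1r, 0.0594 for Trem2 and 0.117 for Cd163. None of the 8 members passed within either depth class, where few genes did: 87 of 13614 in the deep and 140 of 13614 in the shallow libraries. Without animal 4438, Trem2 (adjusted p = 0.0781) and Cd163 (adjusted p = 0.199) were lost. Of 24 other macrophage genes 8 rose with Il34, among them C1qa (0.26 ± 0.05), C1qb (0.27 ± 0.05), C1qc (0.31 ± 0.05) and Tyrobp (0.23 ± 0.05), and 5 did so without animal 4036. Spi1 rose by 0.28 ± 0.05 (adjusted p = 0.000700) and Apoe by 0.32 ± 0.07 (adjusted p = 0.00624). Of 16 stroma matrix genes 9 rose, and 1 did without animal 4036. Without that animal 136 of 13614 genes rose. Among all called genes 67.2% rose, but 32.7% did in quantile-normalised values, where 5 of the 24 macrophage genes and 4 of the 16 stroma matrix genes rose. In those values 311 of 13614 genes rose.

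With Csf1 as the predictor, none of the other 8 members passed, and 2 of 13614 genes did (0.0147%), 1 rising and 1 falling (0.00735% each). Csf1r came closest among the members, with a slope of 0.24 ± 0.08 (p = 0.00764, adjusted p = 0.149), and it was the only member at an unadjusted p under 0.05. An adjusted p depends on the p-values of all genes tested with the same predictor. The relation of Csf1 and Csf1r can therefore pass with Csf1r as the predictor and not with Csf1, and the difference is no sign of direction. No gene of the 23 lists passed either. At an unadjusted p under 0.05 with limma, 6 of 24 other macrophage genes and 6 of 7 MHC class II genes had positive slopes and 9 of 12 proliferation genes negative ones, beside 988 positive and 1408 negative slopes among all genes. Positive slopes at that threshold were also seen for 6 of 10 resident macrophage genes, 5 of 9 adipocyte genes and 1 of 16 stroma matrix genes. Of 8 genes of arginine metabolism and alternative activation, 4 had positive slopes and 1 a negative one. The 2 genes called were L1cam, a neural cell adhesion molecule gene, which rose (0.34 ± 0.06), and Ldhb, the gene of a lactate dehydrogenase subunit, which fell by 0.26 on the log2 scale (SE 0.05), both with adjusted p = 0.0277. The count of genes called with Csf1 was unstable, since it was 839 without animal 4438, where Csf1r passed (0.29, adjusted p = 0.0275), 191 without animal 4357, between 4 and 71 without animal 3427, 3654, 4020, 4042, 4144, 4150, 4461, 4492 or 4511, and 0 without animal 4030, 4036, 4315, 4378, 4459 or 4638.

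The genes whose levels ran closest to each member over the 30 tumours, members left out, are given with r as a description. Next to Csf1r came Nfam1, an immunoreceptor gene of blood cells (r = 0.94), the receptor tyrosine kinase gene Axl (0.91), the transporter gene Abca9 (0.90), Laptm5 (0.90), Inpp5d (0.90), Sik2 (0.90), Cyth4 (0.90), Nrp1 (0.89), Rgl1 (0.89) and the interleukin 10 receptor gene Il10ra (0.89). The lowest were the translation factor gene Eif4a1 (-0.81), Hyls1 (-0.81), C1qbp (-0.80), Nme1 (-0.80) and Rpf1 (-0.80). Next to Csf1 came L1cam (0.72), Otud1 (0.71), Dglucy (0.66), Stat5b (0.65), a transcription factor gene that acts downstream of prolactin, and Grb10 (0.65), none of them a macrophage marker in the lists used here, and the lowest was Ldhb (-0.72). Next to Il34 came Kank2 (0.79) and Pld4 (0.77), a gene of an exonuclease of myeloid cells, followed by 8 gamma-protocadherin genes with r between 0.766 and 0.770. These 8 share exons, so their values are not separate measurements.

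The macrophage genes differed in their neighbours. Adgre1 ran closest to Prcp (0.88), Laptm5 (0.87) and Col15a1 (0.86). Mrc1 ran closest to the lectin gene Cd209f (0.94), Cd34 (0.93), a surface protein gene of endothelial and blood progenitor cells, and the complement gene C1s1 (0.92). Cd163 ran closest to the fibroblast genes Pdgfra (0.85), Prelp (0.85) and Col14a1 (0.83). Trem2 ran closest to Tmem86a (0.81) and to Tyrobp (0.81), the gene of its own signalling adaptor, with Arl11 (0.79), Apobec1 (0.79) and C1qb (0.76) behind. Cd14 ran closest to the tubulin gene Tubb2b (0.77) and had the luminal keratin gene Krt19 among its first 5 (0.73). Arg1 ran closest to the transcription factor gene Bhlha15 (0.68), Cxcl17 (0.68), Dap (0.66), Il20 (0.66) and Adrb1 (0.66), with no macrophage gene of the lists among them. Over the 24 other macrophage genes the median r was 0.68 with Csf1r, 0.63 with Adgre1, 0.59 with Mrc1, 0.47 with Cd163, 0.46 with Il34 and with Trem2, 0.24 with Csf1, 0.23 with Cd14 and -0.24 with Arg1, beside medians between -0.054 and 0.025 over all genes.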

How the data were processed

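Poly-A selected, fragmented and gel-sized RNA libraries were made from 30 tumours, per the labels' protocols. A single table deposited by the authors holds RPKM values for 27902 transcripts and 30 tumours; the unit was inferred from the values. Per the submitters' processing notes CASAVA 1.7.0 was among the tools; the build, annotation and aligner settings are not given in the sources. Rows were named by accession with a RefSeq table of GRCm38.p6 (26486 rows) and GENCODE vM21 (158); 1258 unnamed rows, with 1.94% of the summed RPKM, and 686 small RNA rows were left out. The row with the highest mean stood for each gene; Csf1 had 3 rows, Il34 and Cd163 2 each, all with r of at least 0.937 with the row used.

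Depth was recovered from the steps of RPKM times length; between 59.7 and 77.0% of low values lay within 0.12 of a whole read, against 24% by chance, too few for a count test. The log2(RPKM + 1) scale makes changes of low genes look smaller. The 13615 genes whose mean reached 1 RPKM were tested with limma 3.58.1 in R 4.3.3 (two-sided, eBayes with a mean-variance trend). The permutation tests of the pairs were run with numpy 2.4.6 under Python 3.11.15. In simulated data for a regression on 1 predictor over 13615 genes, 6, 70, 96 and 100% of genes with slopes of 0.1, 0.25, 0.5 and 1 were recovered, and 6.85% of calls were false. The simulated noise was independent between genes, and its SD was capped below the SDs of Arg1, Mrc1 and Cd163. Real genes vary together and can vary more, so these rates hold for the simulated setting and can be too favourable for these data. Each animal gave 1 library, so errors hold both animal and technical variation.

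Genes named beside the members were, by rule, the 10 (Csf1r, Csf1, Il34) or 5 (other members) with the highest r, the 5 with the lowest r for Csf1r, Csf1 and Il34, and, of each of 23 lists, the 3 most abundant genes and the 1 with the smallest adjusted p with Csf1r; any gene of the CSF1 receptor, Trem2, Cd14 and arginine lists could be named. The members and lists were chosen with earlier results of these data known, and the depth classes and the comparison of depth classes after the values were seen.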

Additional observations from a re-analysis of the deposited data

How the results depend on the processing

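Of the values recomputed for single genes and pairs under the other settings, 841 kept their direction and side of the threshold, 110 lost a call, 13 gained a call and 22 turned. The single genes were the members and the genes with the highest and lowest r with Csf1r, Csf1 or Il34 in these same tumours. The pairs were a chosen part of the 36. Genes picked for a strong r tend to keep their direction, so these counts are no general measure of stability. All 9 median levels moved by less than 1 SD over tumours in either depth class, as did those of Csf1, Il34 and Cd163 with other transcripts. That mark is wide, since the SD exceeded the median for Arg1 (79.8 against 66.7 RPKM) and Mrc1 (6.31 against 5.98 RPKM). The Arg1 median was 78.7 RPKM in deep and 55.3 RPKM in shallow libraries. The pairs passing, 18 of 36, were 6 in the shallow libraries, 9 without the tumours farthest from the median, 4 on stroma residuals, and 11 (without animal 4036) to 19 with each tumour left out. Genes related to Csf1r, 3498, were 660 in deep and 2088 in shallow libraries, 1231 without animals 4036 and 4150, 109 with stroma and 1555 with adipocyte score as covariate, and 2215 (without animal 4150) to 3609 with each tumour left out. Genes related to Il34, 688, were 87, 140, 37 (without animals 4438 and 4036), 141 and 104 in the same order, 327 with ranks, and 122 (without animal 4438) to 1075 (without animal 4378), with 184 without animal 4036 and 353 without animal 4144. Genes related to Csf1, 2, were 6 with a pseudocount of 0.1, 64 at a mean of at least 5 RPKM, 0 without a filter, with quantile normalisation, with ranks, in either depth class and without animals 4030 and 4036, 1 with either covariate, and 0 to 839 (without animal 4438). Genes related to insert size, 5, were 11 with a pseudocount of 0.1, 3 at a mean of at least 5 RPKM, 468 with depth class as covariate, and 1 (without animal 3871) to 113 (without animal 4438). Direction turned only for slopes and r that had not passed. For r, the values below cover a chosen part of the 36 pairs, and r turned in pairs outside it as well. There r of Csf1 with Trem2 was -0.083 over all tumours and 0.40 in deep libraries. That of Csf1 with Cd163 was 0.21 over all tumours and -0.11 in shallow libraries. In deep libraries Arg1 on Csf1 was -0.026, Trem2 on Csf1 0.15 and Cd14 on Il34 -0.037. In shallow ones Il34 on Csf1 was -0.073, Cd163 on Csf1 -0.063, Csf1 on Il34 -0.066, Arg1 on Il34 -0.071 and r of Csf1 with Il34 -0.21. Without the farthest tumours Il34 on Csf1 was -0.023, Cd163 on Csf1 -0.080, Cd14 on Il34 -0.033 and r of Csf1 with Il34 -0.074. With the stroma covariate Cd14 on Csf1r was -0.17, Il34 on Csf1 -0.028, Cd163 on Csf1 -0.0070, Csf1 on Il34 -0.040, Cd14 on Il34 -0.12, r of Csf1 with Il34 -0.10 and r of Csf1r with Cd14 -0.23. With the adipocyte covariate Il34 on Csf1 was -0.028 and Csf1 on Il34 -0.031, and Arg1 on ranks of Il34 was -0.0044. With each tumour left out, slopes ran from -0.020 to 0.076 (Il34 on Csf1), -0.046 to 0.095 (Arg1 on Csf1), -0.11 to 0.0079 (Trem2 on Csf1), -0.020 to 0.087 (Csf1 on Il34), -0.032 to 0.084 (Cd14 on Il34), -0.091 to 0.12 (Arg1 on Il34), -0.020 to 0.10 (Cd163 on insert size), -0.025 to 0.098 (Cd14 on insert size) and -0.031 to 0.043 (Il34 on insert size), and r of Csf1 with Il34 from -0.067 to 0.27. The causes were not tested. No paired analysis was possible because the 30 tumours form 1 group.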

Other observations

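Arg1 and Retnla are both known targets of interleukin 4 signalling in macrophages. Over the 8 tested genes of arginine metabolism and alternative activation the median r was -0.17 with Arg1 and 0.46 with Csf1r. Over the 5 mast cell genes it was -0.46 with Arg1 and 0.79 with Mrc1, and over the 9 adipocyte genes -0.44 with Arg1 and 0.67 with Mrc1.

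Il4, Il10 and Il13, the cytokine genes of alternative activation, were low in every tumour, with highest values of 1.28, 0.468 and 0.598 RPKM, and were not tested. Chil3, a chitinase-like protein gene of alternatively activated macrophages, had a median of 0.254 RPKM and a highest value of 8.08 RPKM. Timd4, a marker of resident macrophages, had a median of 0.375 RPKM and reached 8.98 RPKM in 1 tumour.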
